A study of Mus musculus with 12 samples.

Results

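The PDGF, VEGF and angiopoietin factors were followed in U2OS cells, a human osteosarcoma cell line, through 10 genes of the 58735 in the deposited expression table. They were 3 platelet-derived growth factor ligands (PDGFA, PDGFB, PDGFC), their receptors PDGFRA and PDGFRB, the vascular endothelial growth factors VEGFA and VEGFC, the angiopoietins ANGPT1 and ANGPT2, and ESM1 (endothelial cell specific molecule 1). The members were chosen by gene family with earlier results of these libraries known, and each was found by its full name. Of them, 5 had been listed by the study from these same libraries, ANGPT2 as higher and ESM1, PDGFB, PDGFRA and ANGPT1 as lower with siRNA. The levels of the members, their fold changes and their counts past a threshold are therefore given as a description and not as independent evidence. Of the 10 genes, 8 passed a filter of a mean of at least 0.5 FPKM over all libraries, a unit of sequenced fragments that is corrected for gene length and library depth. PDGFRA and ANGPT1 fell below it and are described from their FPKM and reads.

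RNA-Seq was done on 12 libraries in 4 groups of 3: blank cells, cells given the siRNA siSRSF1-2 or siSRSF1-3 against the splicing factor SRSF1, and cells made to overexpress LINC01134, a long non-coding RNA (OE-LINC01134). All were U2OS, a single tumor cell line. The 12 libraries included none with a control siRNA or an empty vector, so the effect of transfection and that of SRSF1 or LINC01134 cannot be told apart. The labels do not say whether replicates were separate cultures, and the supplementary methods call replicates biological but give a different number of them per condition. Where they came from is therefore not settled, and p-values measure only the spread between these libraries.

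PDGF ligands are secreted dimers that bind the receptor tyrosine kinases PDGFRA and PDGFRB, and drive growth of mesenchymal cells and recruitment of pericytes to vessels. VEGFA is the main growth signal of blood vessel endothelium and VEGFC that of lymphatic endothelium. ANGPT1 activates the endothelial receptor TIE2 (gene TEK) and keeps vessels quiet, whereas ANGPT2 competes with it in many settings and loosens them. ESM1, also called endocan, is a secreted proteoglycan made by sprouting endothelium and by many tumors.

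The table gives coordinates without naming the human genome build. PDGFA (ENSG00000197461) lies on chromosome 7 from 497258 to 520296, PDGFB (ENSG00000100311) on chromosome 22 from 39223359 to 39244751 and PDGFC (ENSG00000145431) on chromosome 4 from 156760454 to 156971394, all on the minus strand. PDGFRA (ENSG00000134853) is on the plus strand of chromosome 4 from 54229097 to 54298247, and PDGFRB (ENSG00000113721) on the minus strand of chromosome 5 from 150113837 to 150155872. VEGFA (ENSG00000112715) is on the plus strand of chromosome 6 from 43770184 to 43786487, and VEGFC (ENSG00000150630) on the minus strand of chromosome 4 from 176683538 to 176792727. ANGPT1 (ENSG00000154188) and ANGPT2 (ENSG00000091879) share the minus strand of chromosome 8, from 107249482 to 107498055 and from 6499651 to 6563409, and ESM1 (ENSG00000164283) is on that of chromosome 5 from 54977864 to 55022671.

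The targeted genes followed the labels. SRSF1 was at 35.9, 19.8 and 20.5 FPKM in the blank replicates 1 to 3, between 7.09 and 7.46 with siSRSF1-2, between 3.33 and 7.90 with siSRSF1-3 and between 29.6 and 31.8 in OE-LINC01134. LINC01134 lay between 878 and 1279 FPKM in OE-LINC01134 and at 1.11 FPKM or less in the other libraries. With limma over all genes tested, the log2 fold change of SRSF1 was -1.72 ± 0.23 (SE, n = 3 per group) with siSRSF1-2, adjusted p = 0.0050, and -2.09 ± 0.38 with siSRSF1-3, adjusted p = 0.0518, just outside the threshold of 0.05. Between 26237763 and 32954539 reads fell on genes per library. Osteoblast lineage and mesenchymal markers were partly present, with 6 of 9 at a mean of 0.5 FPKM or more, led by VIM and SPARC, while SP7, BGLAP and COL1A2 stayed at 0.384 FPKM or less. Of 9 endothelial markers 1 reached that mean, ROBO4 at 3.93 to 10.5 FPKM. The other endothelial markers were at 0.629 FPKM or less, EMCN had at most 1 read, and the sum of the list was 5.57 to 11.3 FPKM in the blank libraries, 6.26 to 7.57 in OE-LINC01134, 9.06 to 10.2 with siSRSF1-2 and 11.2 to 11.5 with siSRSF1-3. Leukocyte markers summed to 0.696 FPKM or less in each library, and CD3E was at 0 reads in all. Pericyte and smooth muscle markers, which the mesenchymal line itself can express, summed to 26.2 to 38.3 FPKM in blank, 26.1 to 33.8 in OE-LINC01134, 16.9 to 17.7 with siSRSF1-2 and 10.98 to 17.7 with siSRSF1-3. MCAM was the largest part of these sums, at 16.4 to 32.8 FPKM in blank and 6.13 to 10.2 in the siRNA libraries. CSPG4 was also lower with the siRNAs, whereas ACTA2 overlapped blank. ABCC9 was higher with siSRSF1-2 (2.53 to 2.75 FPKM) than in blank (0.364 to 2.05). The part of these markers in the results was not tested.

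A few libraries stood apart from their group. Blank replicate 1 correlated best with OE-LINC01134 replicate 2 (r = 0.958 across genes) and less with the other blank libraries (0.938 and 0.940), and the reverse held for OE-LINC01134 replicate 2. Replicate 3 of siSRSF1-3 was closest to a siSRSF1-2 library (r = 0.968, against 0.851 and 0.922 within its group). Replicates 1 and 2 correlated at 0.945, and the library size implied by their FPKM was 0.712 and 0.888 times their own reads, against 1.06 in replicate 3. Their log2 ratio to the blank mean fell with gene length (Spearman correlation -0.166 and -0.177), against -0.0787 in replicate 3 and -0.0871 to 0.0663 in the other libraries. Values without replicate 3 are therefore not taken as a cleaner estimate. For most members the value without one of the libraries that stood apart is given beside the main one. The 3 siSRSF1-2 libraries, blank replicates 2 and 3, and OE-LINC01134 replicates 1 and 3 were near-identical. The median squared difference of reads in these pairs was 1.93 to 2.7 times that of counting error. In the other pairs within groups it was 23.5 to 95.5 times. Whether the near-identical libraries are repeats of 1 sample is not given. If so, their SE and p-values, above all with siSRSF1-2, understate the spread between cultures. Overlap between groups is described for named genes only, and the share of all genes that separate likewise was not counted.

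**Figure D1:**
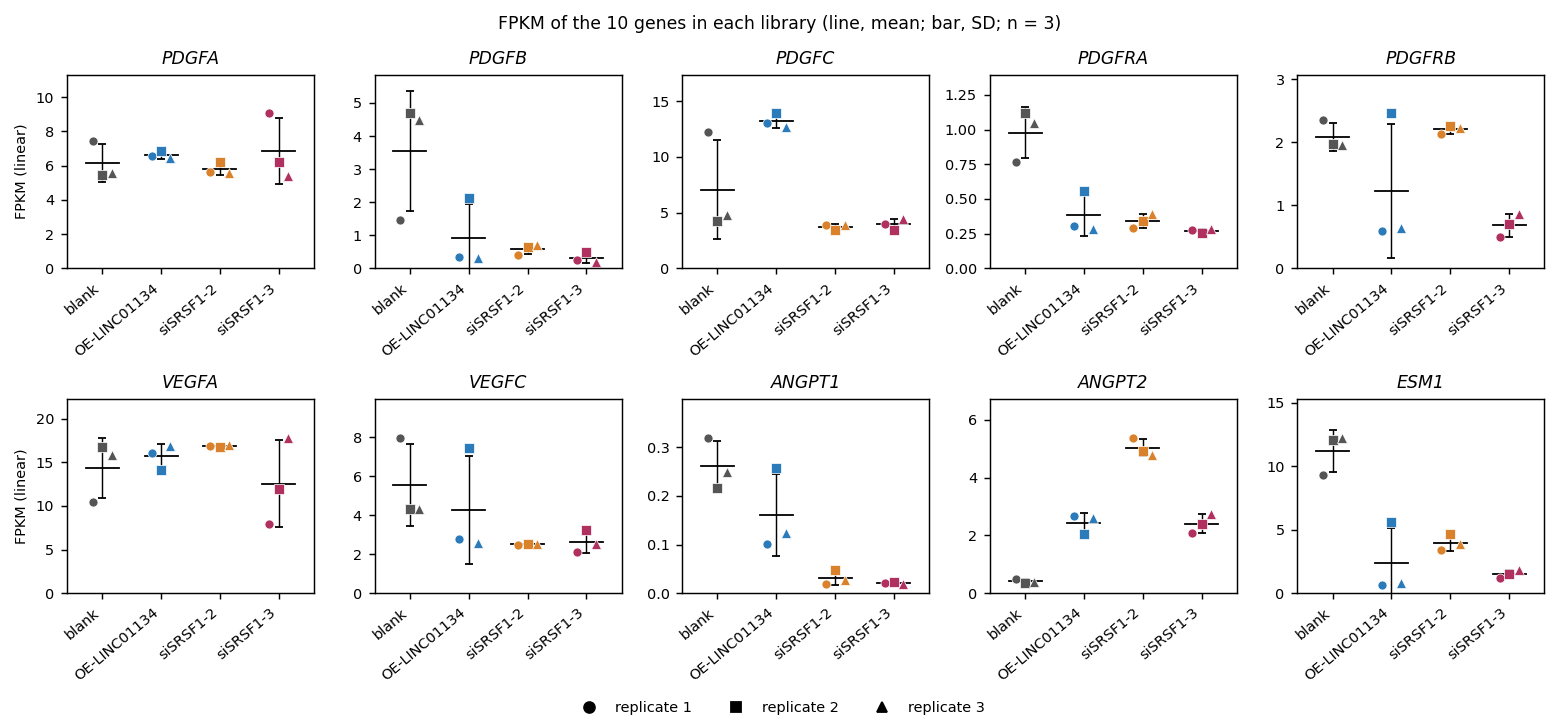
FPKM (linear axes) of the 10 genes by group, 1 point per library, with the mean as a line and the SD as a bar (n = 3). ANGPT2 was above every blank library in the other 3 groups, ESM1 and PDGFRA were below every blank library in the same groups, and blank replicate 1 (circle) and OE-LINC01134 replicate 2 (square) were often apart from their group.

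Among the PDGF ligands, PDGFB was the one that differed most from blank cells. PDGFB encodes the chain that binds both receptors. It was at 1.45, 4.69 and 4.50 FPKM in the blank libraries, 0.417, 0.639 and 0.712 with siSRSF1-2, 0.244, 0.481 and 0.188 with siSRSF1-3, and 0.358, 2.11 and 0.307 in OE-LINC01134. Every siRNA library was below every blank library, whereas OE-LINC01134 replicate 2 overlapped blank replicate 1. The mean was 6.01-fold lower with siSRSF1-2 and 11.6-fold lower with siSRSF1-3, and the fitted log2 fold changes on log2(FPKM + 0.1), which understates the change of low genes, were -2.26 ± 0.47 and -3.07 ± 0.52 (SE). In OE-LINC01134 it was -2.12 ± 0.75, and -3.44 without blank replicate 1 and OE-LINC01134 replicate 2. As a bulk measurement, a lower level could be fewer expressing cells or less RNA per cell, which cannot be told apart.

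PDGFC, a ligand that is secreted in latent form and activated by cleavage, was higher in OE-LINC01134 than in the other groups. It was at 12.2, 4.25 and 4.76 FPKM in blank, 13.03, 13.9 and 12.6 in OE-LINC01134, 3.87, 3.43 and 3.89 with siSRSF1-2 and 4.01, 3.47 and 4.39 with siSRSF1-3. All OE-LINC01134 libraries were above all blank libraries, with blank replicate 1 close to them. The siSRSF1-3 libraries overlapped the blank range, and those of siSRSF1-2 lay just below its lowest value. The log2 fold change was 1.06 ± 0.38 in OE-LINC01134, 1.53 without blank replicate 1, and -0.74 ± 0.39 and -0.66 ± 0.40 with siSRSF1-2 and siSRSF1-3. Without blank replicate 1 the values with the siRNAs were -0.27 and -0.18. PDGFA, the ligand of PDGFRA, stayed within 5.38 and 9.06 FPKM in all 12 libraries. Its other groups overlapped blank, whereas OE-LINC01134 lay above siSRSF1-2 without overlap. The log2 fold changes of PDGFA lay between -0.07 and 0.21, and between 0.07 and 0.28 against blank without blank replicate 1.

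These levels set different mixtures of ligand transcripts, compared per length in FPKM. PDGFB made up 32.5% and 30.3% of the summed FPKM of the 3 ligands in blank replicates 2 and 3 and 6.88% in replicate 1. The share of PDGFB was between 4.19% and 7.01% with siSRSF1-2, between 1.83% and 4.73% with siSRSF1-3 and between 1.58% and 9.24% in OE-LINC01134. PDGFC took 60.8% to 65.4% in OE-LINC01134, whereas PDGFA took 54.0% to 68.0% in the siRNA libraries. The ratio of PDGFA to PDGFB was 5.11, 1.17 and 1.24 in blank, 13.6, 9.74 and 7.79 with siSRSF1-2, 37.1, 12.9 and 28.7 with siSRSF1-3 and 18.3, 3.24 and 20.98 in OE-LINC01134. Blank replicate 1 was above OE-LINC01134 replicate 2 in this ratio, and every siRNA library was above every blank library.

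The receptors were lower in level than PDGFA, and their patterns differed. PDGFRA, the receptor that binds all 3 ligands, was at 0.768, 1.12 and 1.05 FPKM in blank, 0.293, 0.344 and 0.391 with siSRSF1-2, 0.278, 0.255 and 0.280 with siSRSF1-3 and 0.309, 0.557 and 0.280 in OE-LINC01134. No library of the other groups reached the blank range. Its reads, 53 to 334 per library, summed to 850 in blank, 316 with siSRSF1-2, 201 with siSRSF1-3 and 313 in OE-LINC01134. After scaling to library size the blank rate was 2.84-fold that of siSRSF1-2 (exact 95% counting interval 2.49 to 3.24), 3.63-fold that of siSRSF1-3 (3.11 to 4.25) and 2.60-fold that of OE-LINC01134 (2.28 to 2.96). These intervals cover counting error only and not the spread between replicates.

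PDGFRB, the receptor for PDGFB that marks pericytes, separated the siRNAs. It was at 2.34, 1.97 and 1.95 FPKM in blank and 2.13, 2.25 and 2.22 with siSRSF1-2, which overlapped, but at 0.493, 0.700 and 0.858 with siSRSF1-3. In OE-LINC01134 it was at 0.585, 2.46 and 0.637 FPKM, and replicate 2 was above every blank library while the other replicates were below. With limma, the log2 fold change was 0.08 ± 0.11 with siSRSF1-2 and -1.50 ± 0.27 with siSRSF1-3 (adjusted p = 0.0515, just outside the threshold). Between the siRNAs it was -1.58 ± 0.22 in siSRSF1-3 relative to siSRSF1-2, also not past the threshold. In OE-LINC01134 the log2 fold change was -1.002 ± 0.50, and -1.62 without replicate 2. The ratio of PDGFRB to PDGFRA was 1.77 to 3.05 in blank, 5.68 to 7.25 with siSRSF1-2, 1.78 to 3.06 with siSRSF1-3 and 1.90 to 4.41 in OE-LINC01134.

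VEGFA had the highest mean level of the members over all libraries, at 7.90 to 17.8 FPKM. Its groups overlapped, except that siSRSF1-2 lay just above blank (lowest 16.754 against highest 16.752 FPKM). It was at 10.4, 16.8 and 15.8 FPKM in blank, 16.9, 16.8 and 17.1 with siSRSF1-2, 7.90, 11.9 and 17.8 with siSRSF1-3 and 16.1, 14.1 and 16.9 in OE-LINC01134. Its log2 fold changes against blank lay between -0.24 and 0.27. Within siSRSF1-3 the highest value was in replicate 3, the library closest to siSRSF1-2. The log2 fold change of -0.24 with siSRSF1-3 was -0.53 without replicate 3 and -0.45 without blank replicate 1. It turned positive after removal of the gene length trend, for which the length of VEGFA was 14431 bases. The part of this trend in the difference was not tested. Without blank replicate 1, the value was 0.05 with siSRSF1-2 and -0.06 in OE-LINC01134.

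VEGFC, the lymphatic growth factor, was at 7.95, 4.33 and 4.32 FPKM in blank, 2.49, 2.50 and 2.49 with siSRSF1-2 and 2.09, 3.22 and 2.52 with siSRSF1-3. Every siRNA library was below every blank library. The log2 fold change was -1.06 ± 0.24 with siSRSF1-2 and -1.02 ± 0.30 with siSRSF1-3. Without blank replicate 1 the values were -0.77 and -0.73, under the fold change of the threshold. In OE-LINC01134, VEGFC was at 2.78, 7.44 and 2.56 FPKM, so replicate 2 lay in the blank range and the others below it. The log2 fold change was -0.48 ± 0.44, and -0.97 without replicate 2. The ratio of VEGFA to VEGFC was 1.31 in blank replicate 1 and 1.89 in OE-LINC01134 replicate 2, and 3.67 to 7.07 in the other 10 libraries.

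The angiopoietins differed from blank in opposite directions in the siRNA libraries. ANGPT2 was at 0.496, 0.364 and 0.388 FPKM in blank, 5.37, 4.94 and 4.80 with siSRSF1-2, 2.07, 2.41 and 2.73 with siSRSF1-3 and 2.67, 2.06 and 2.59 in OE-LINC01134. All 9 manipulated libraries were above all 3 blank libraries, and siSRSF1-2 was above both other groups without overlap. How many of all genes separate in this way was not counted. The mean was 12.1-fold higher than blank with siSRSF1-2, 5.78-fold with siSRSF1-3 and 5.87-fold in OE-LINC01134, and the log2 fold changes were 3.32 ± 0.14, 2.28 ± 0.26 and 2.30 ± 0.22. Between the siRNAs it was -1.04 ± 0.14 in siSRSF1-3 relative to siSRSF1-2. The reads behind these values were 70 to 93 per library in blank and 275 to 1153 in the others. These comparisons share the blank libraries, and the values are therefore not independent of each other.

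By the coordinates of the table, ANGPT2 overlaps microcephalin 1 on the plus strand, and strand use in counting is not given in the sources used here. The group means of microcephalin 1 were 1.92 FPKM in blank, 2.74 with siSRSF1-2, 2.16 with siSRSF1-3 and 2.31 in OE-LINC01134. These means followed the same order as those of ANGPT2 but spanned a narrower range, and the part of shared reads was not tested.

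ANGPT1, the agonist of TIE2, was low throughout. It was at 0.319, 0.217 and 0.249 FPKM in blank, 0.102, 0.257 and 0.123 in OE-LINC01134, 0.0195, 0.0475 and 0.0277 with siSRSF1-2 and 0.0215, 0.0221 and 0.0180 with siSRSF1-3. The counts were 63, 44 and 58 reads in blank, 4, 10 and 7 with siSRSF1-2 and 3, 4 and 4 with siSRSF1-3, near a floor of 3 reads. Summed over libraries and scaled to library size, the blank rate was 8.29-fold that of siSRSF1-2 (exact 95% counting interval 5.25 to 13.8) and 12.9-fold that of siSRSF1-3 (7.01 to 26.3). OE-LINC01134 overlapped blank, and the blank rate was 1.64-fold that of OE-LINC01134 (1.27 to 2.14).

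The ratio of ANGPT2 to ANGPT1 was 1.55, 1.67 and 1.56 in the blank libraries. It was 26.3, 8.02 and 21.1 in OE-LINC01134, 275, 104 and 173 with siSRSF1-2 and 96.4, 109 and 152 with siSRSF1-3. The groups blank and OE-LINC01134 did not overlap with each other or with the siRNA groups, whereas the siRNA groups overlapped. With 3 to 10 reads of ANGPT1 behind each siRNA ratio, the exact counting intervals were wide, for example 32.7 to 471 in siSRSF1-3 replicate 1.

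**Figure D2:**
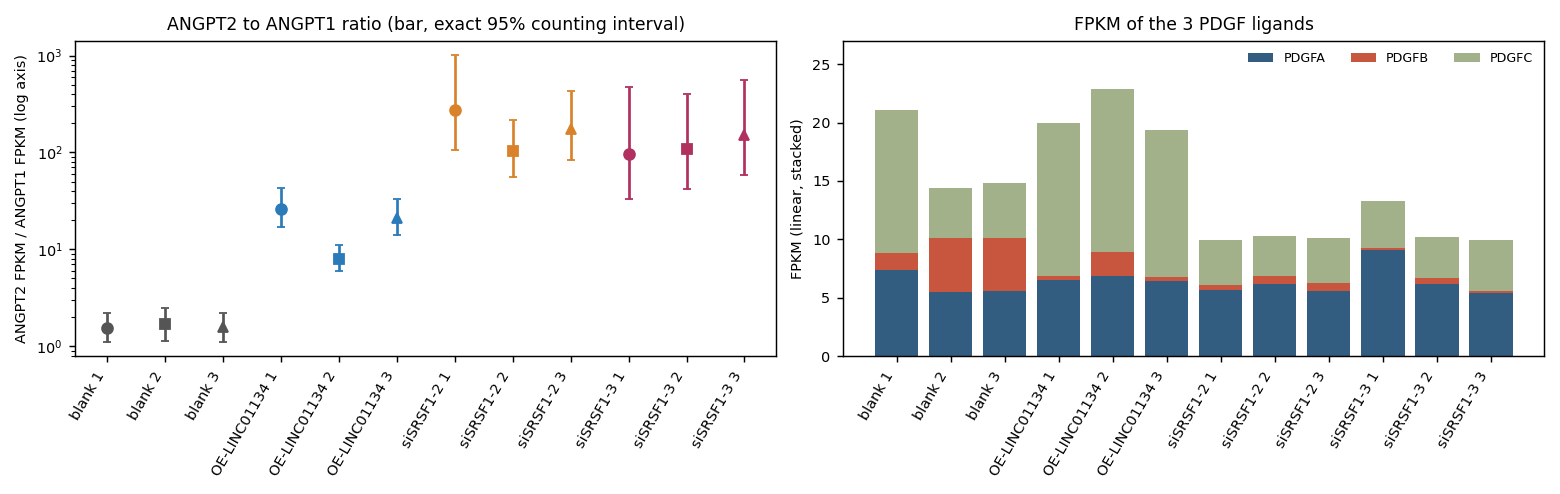
Left, ratio of ANGPT2 to ANGPT1 FPKM in each library on a log axis, with the exact 95% counting interval as a bar. Right, FPKM of PDGFA, PDGFB and PDGFC stacked for each library on a linear axis from 0. The blank ratios sit between 1.55 and 1.67 and the siRNA ratios between 96.4 and 275, and PDGFB is thickest in blank replicates 2 and 3.

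ESM1 was lower in all manipulated libraries. It was at 9.31, 12.1 and 12.2 FPKM in blank, 3.38, 4.65 and 3.90 with siSRSF1-2, 1.23, 1.52 and 1.78 with siSRSF1-3 and 0.640, 5.61 and 0.766 in OE-LINC01134. No manipulated library reached the blank range, and siSRSF1-3 was below siSRSF1-2 without overlap. The mean was 2.82-fold lower than blank with siSRSF1-2, 7.42-fold with siSRSF1-3 and 4.80-fold in OE-LINC01134. The log2 fold changes were -1.47 ± 0.16, -2.82 ± 0.21 and -2.87 ± 0.74, and without blank replicate 1 and OE-LINC01134 replicate 2 the last was -3.94.

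Past the threshold used across all genes (adjusted p under 0.05 and absolute log2 fold change over 1 in limma), the members were counted against all 17538 genes tested. With siSRSF1-3, 1 of 8 was higher (ANGPT2) and 2 were lower (PDGFB, ESM1), where 0.331% of all genes were higher and 0.929% lower. With siSRSF1-2, 1 was higher (ANGPT2) and 3 were lower (ESM1, PDGFB, VEGFC), where 2.22% and 2.73% of all genes were. With OE-LINC01134, 1 was higher (ANGPT2) and 0 were lower, where 0.257% and 0.593% of all genes were. The last count was 5 (2 higher, 3 lower) without blank replicate 1 and OE-LINC01134 replicate 2, where ESM1, PDGFB, PDGFRB and PDGFC joined ANGPT2 and where 5.1% of all genes were higher and 8.84% lower. Leaving out blank replicate 2, blank replicate 3 or siSRSF1-3 replicate 2 took the siSRSF1-3 count to 0, where 0 of all 17538 genes passed, with log2 fold changes of 2.21 to 2.27 for ANGPT2, -3.37 to -2.79 for PDGFB and -2.83 to -2.75 for ESM1. Leaving out blank replicate 1 or siSRSF1-3 replicate 1 took it to 1 (ESM1), where 0.165% and 0.0741% of all genes passed. Leaving out siSRSF1-3 replicate 3 took it to 4 with PDGFRB, where 12.5% of all genes were higher and 11.4% lower. The OE-LINC01134 count was 0 without blank replicate 2, blank replicate 3 or OE-LINC01134 replicate 1 or 3, where 0.0513% of all genes or fewer passed, with ANGPT2 still between 2.23 and 2.26. With siSRSF1-2 the count was 3 without any 1 blank library and 2 without any 1 siSRSF1-2 library, where ANGPT2 and ESM1 stayed past the threshold and PDGFB, VEGFC or both did not, and where 3.04% to 6.77% of all genes passed. Between siSRSF1-3 and siSRSF1-2, 0 members passed with limma, where 0.0342% of all genes were higher and 0.0513% lower. With the same fold and an unadjusted p below 0.05, 3 were lower in siSRSF1-3, where 9.01% of all genes were higher and 7.42% lower. With voom 2 were lower, where 0.319% and 0.308% of all genes were. Without siSRSF1-3 replicate 3, PDGFRB, ANGPT2 and ESM1 were past the threshold, all lower in siSRSF1-3, where 16% of all genes were higher and 14.5% lower. The median log2 fold change of the 8 members was -0.84 with siSRSF1-3, -0.40 with siSRSF1-2 and -0.18 in OE-LINC01134, beside -0.01, 0.02 and 0.05 over all genes. ANGPT2 averaged 0.416 FPKM in blank, under the filter, and passed it only through the groups where it was higher. PDGFRA and ANGPT1, both lower than blank in the siRNA libraries, fell below the filter. The counts and medians therefore depend in part on the filter. As the members were chosen with results known, these counts and medians are a description.

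**Figure D3:**
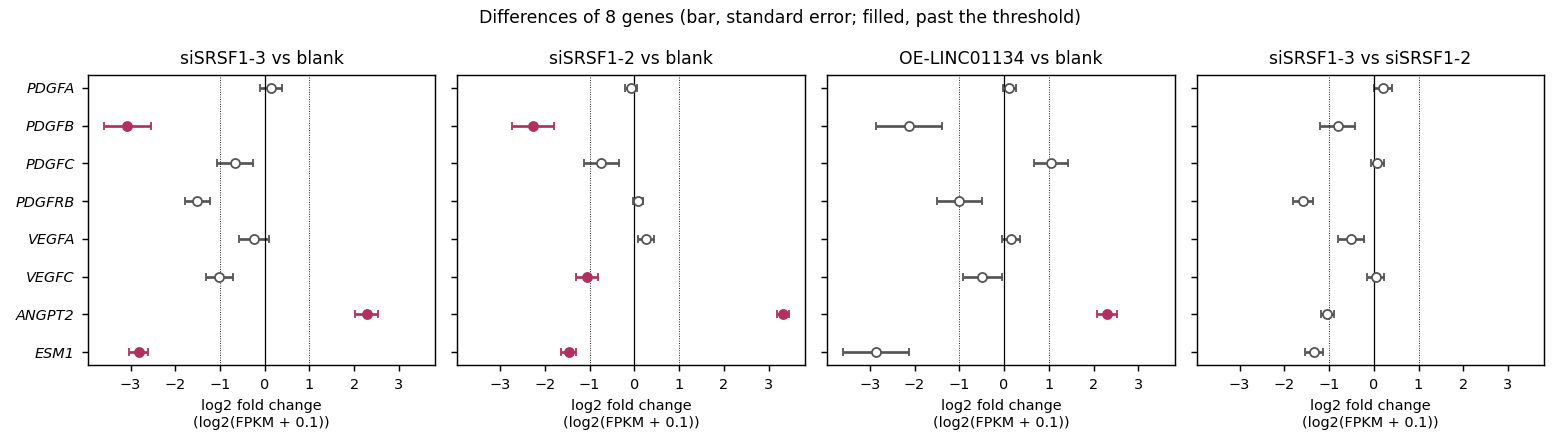
Log2 fold change on log2(FPKM + 0.1) of the 8 genes tested in the 4 comparisons, with the standard error as a bar and filled points past the threshold. ANGPT2 sits at 2.28 or above in all 3 comparisons with blank, and the error of ESM1 and PDGFB is widest with OE-LINC01134.

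The surrounding pathways were described through 67 other genes in 5 lists by function, of which 51 passed the filter. With siSRSF1-3, 2 of the 51 were lower and 0 higher by limma, against 10 lower and 1 higher at an unadjusted p, where 7.24% of all genes were lower and 7.57% higher. PLAT and PLAU, the tissue-type and urokinase plasminogen activators, whose plasmin releases growth factors from matrix, had log2 fold changes of -2.94 ± 0.25 and -2.29 ± 0.19 (both adjusted p = 0.0184). With siSRSF1-2, whose libraries were near-identical, they were also lower, by -2.28 ± 0.08 (adjusted p = 0.000375) and -2.70 ± 0.08 (adjusted p = 0.000293). The siSRSF1-3 count was 0 without blank replicate 2, blank replicate 3 or siSRSF1-3 replicate 2, where 0 of all genes passed, 1 without blank replicate 1 (0.165% of all genes), and 13 without siSRSF1-3 replicate 3 (23.9% of all genes). PLAT, PLAU and FLT4, the VEGFC receptor, had also been listed by the study from these libraries, so that they are not independent evidence. PLAU was at 30.0, 33.3 and 34.1 FPKM in blank and at 4.68 to 8.12 in the siRNA libraries, while OE-LINC01134 gave 1.98, 13.6 and 1.66.

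With siSRSF1-2, 4 of 51 were lower and 0 higher, against 5 and 0 at an unadjusted p, where 3.43% of all genes were lower and 3.06% higher. The other 2 were PDGFRL, a receptor-like gene (-1.41 ± 0.21, adjusted p = 0.00723), and PGF, a ligand of the VEGF family (-1.32 ± 0.21, adjusted p = 0.00816). With OE-LINC01134, 1 of 51 was lower and 0 higher, against 7 and 0 at an unadjusted p, where 5% of all genes were lower and 2.45% higher. This gene was CCBE1, a cofactor for the maturation of VEGFC (-2.50 ± 0.26, adjusted p = 0.0233), at 1.46 to 1.55 FPKM in blank and 0.141 to 0.218 in OE-LINC01134. Without blank replicate 1 and OE-LINC01134 replicate 2 the count was 10 lower, where 8.84% of all genes were lower. It was 0 without blank replicate 2, blank replicate 3 or OE-LINC01134 replicate 1 or 3, where 0.0513% of all genes or fewer passed. Between siSRSF1-3 and siSRSF1-2, 0 of 51 passed in limma and 0 with voom, where 0.0855% and 0.627% of all genes passed. At an unadjusted p the count was 9 lower, where 16.4% of all genes passed in either direction, and without siSRSF1-3 replicate 3 it was 15 (2 higher, 13 lower), where 30.6% passed.

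By list, the median log2 fold change of other ligands and receptors was -0.79 with siSRSF1-3, -0.83 with siSRSF1-2 and -0.76 in OE-LINC01134 over 8 genes tested, of which 0, 2 and 0 passed. VEGFB and NRP1, a coreceptor of VEGFA, had the highest levels in it. VEGFB was at 41.9 to 47.3 FPKM outside siSRSF1-3, and at 139, 101 and 51.5 within it (1.08 ± 0.36, adjusted p = 0.124). Without siSRSF1-3 replicate 3 the log2 fold change of VEGFB was 1.48 (adjusted p = 0.0116), where 23.9% of all genes passed. VEGFB has a gene length of 1545 bases, and its value after removal of the gene length trend is not given here. The part of that trend in its difference was therefore not assessed. NRP1 was at 8.12 to 15.0 FPKM. The signalling receptors of endothelium were low, with FLT1 and KDR at 0.0988 FPKM or less and TEK, which both angiopoietins bind, at 0.0705 to 0.533 FPKM. FLT4, the receptor of VEGFC, was at 0.730, 0.958 and 1.30 FPKM in blank, 0.296 to 0.342 with siSRSF1-2, 0.187 to 0.271 with siSRSF1-3 and 0.187, 0.657 and 0.273 in OE-LINC01134, so that its values lay below the blank range in the other groups. It was under the filter and not tested. These 4 receptors were named after their values were seen. Processing and release had medians of -0.75, -0.53 and -0.50 over 7 genes, of which 2, 2 and 1 were lower. FURIN, the protease that cleaves PDGF and VEGFC precursors, was at 53.3 to 68.7 FPKM in blank and 34.3 to 39.6 in the siRNA libraries, and its log2 fold changes of -0.75 and -0.60 did not reach the threshold of 1.

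Signal transducers had medians of -0.30, 0.12 and 0.12 over 19 genes, none of which passed in limma. SHC1, the adaptor of receptor tyrosine kinases, and PTPN11, the phosphatase SHP2, were the highest. PTPN11 was at 33.1 to 37.0 FPKM in blank and 49.8 to 52.8 with siSRSF1-2 (0.56 ± 0.07, adjusted p = 0.00347, under the fold threshold). With siSRSF1-3 it was at 15.5, 18.5 and 36.3 FPKM (-0.66 ± 0.32, adjusted p = 0.214). Without replicate 3 the log2 fold change was -1.02 (adjusted p = 0.0119), where 23.9% of all genes passed. In OE-LINC01134 it was at 51.4, 34.6 and 52.5 FPKM (0.39 ± 0.18, adjusted p = 0.215). SHC1 was at 67.5 to 97.2 FPKM in blank and at 21.8, 42.9 and 59.3 with siSRSF1-3 (-1.01 ± 0.38, adjusted p = 0.148). Without replicate 3 its log2 fold change was -1.32 (adjusted p = 0.0318), in the same setting where 23.9% of all genes passed. Transcriptional regulators had medians of -0.24, 0.35 and 0.25 over 10 genes, none past the threshold in limma. EGR1, an immediate early factor, was at 13.6 FPKM in blank replicate 1 and 78.3 and 77.6 in the others, 132 to 140 with siSRSF1-2, 58.8 to 79.6 with siSRSF1-3 and 17.2 to 31.6 in OE-LINC01134. Its log2 fold change in OE-LINC01134 was -1.04 ± 0.69 (adjusted p = 0.365). Without blank replicate 1 it was -1.88 (adjusted p = 0.0225), where 5.49% of all genes passed. HIF1A, the hypoxia factor that induces VEGFA, was at 36.4 to 43.0 FPKM in blank and 24.5 to 25.3 with siSRSF1-2 (-0.66 ± 0.08, adjusted p = 0.00339, under the fold threshold). With siSRSF1-3 it was at 20.5, 19.3 and 30.3 FPKM (-0.77 ± 0.22, adjusted p = 0.102), whereas OE-LINC01134 gave 72.2, 44.1 and 72.8, all above blank (0.65 ± 0.21, adjusted p = 0.122). Inhibitors had medians of -0.52, -0.32 and -0.27 over 7 genes, none past the threshold in limma. THBS1, an antiangiogenic matrix protein, was at 44.5 FPKM in blank replicate 1 and 5.18 and 5.02 in the others, 2.94 to 2.95 with siSRSF1-2, 1.73 to 2.96 with siSRSF1-3 and 4.73 to 15.0 in OE-LINC01134. SPRY2, an inhibitor of receptor signalling, was at 4.25 to 9.89 FPKM.

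**Figure D4:**
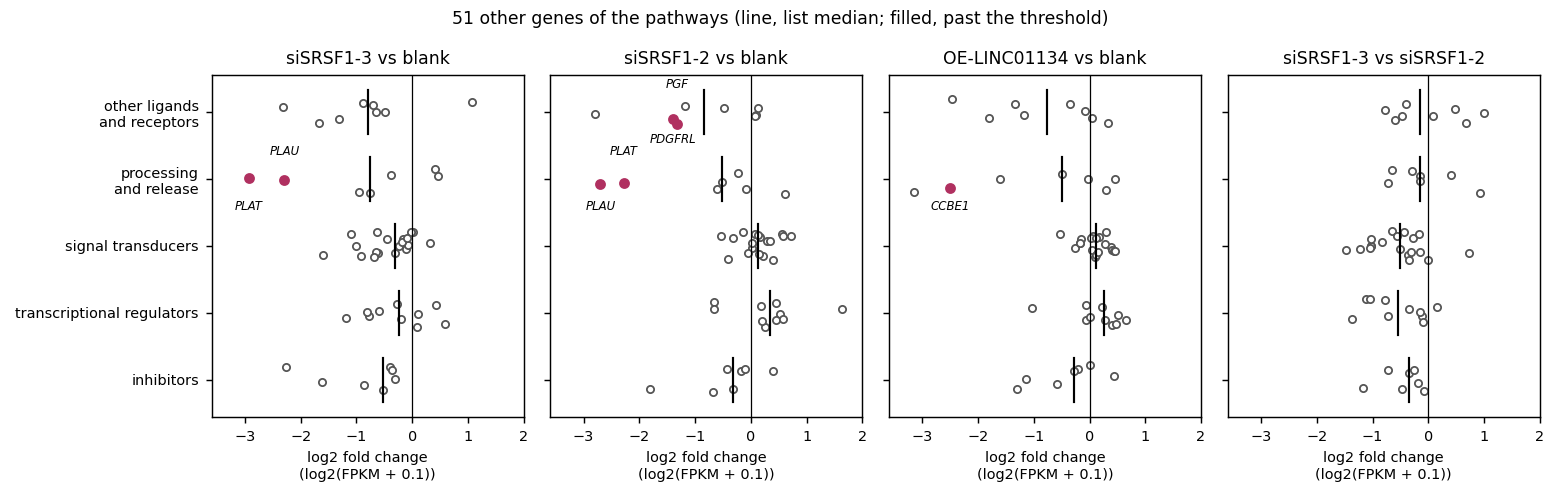
Log2 fold change on log2(FPKM + 0.1) of the 51 other genes tested in 5 lists by function (1 point per gene, line at the list median, filled and named where past the threshold). PLAT and PLAU are past it with both siRNAs, PDGFRL and PGF with siSRSF1-2 and CCBE1 with OE-LINC01134.

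Across the 12 libraries, the members were also compared in their pattern, as a description that shares libraries and groups. PDGFB and PDGFRA had the highest correlation (r = 0.955), VEGFC followed ANGPT1 (r = 0.863), and ANGPT2 ran against PDGFRA (r = -0.867) and ANGPT1 (r = -0.784). PDGFA ran against VEGFA (r = -0.878). The highest PDGFA and lowest VEGFA values were both in siSRSF1-3 replicate 1 (9.06 and 7.90 FPKM) and blank replicate 1 (7.41 and 10.4 FPKM). The FPKM of the former rests on a library size of 0.712 times its own reads, and the part of these libraries in the correlation was not tested. Among 11191 protein coding genes, those closest in pattern to ANGPT2 were REST corepressor 3 (r = 0.95), zinc finger protein 202 (r = 0.949) and golgi SNAP receptor complex member 1 (r = 0.947). Closest to PDGFB were family with sequence similarity 171 member A2 (r = 0.976), stathmin 3 (r = 0.969) and kelch like family member 25 (r = 0.954), and closest to ESM1 were DENN domain containing 3 (r = 0.984), xylosyltransferase 2 (r = 0.983) and integrin subunit alpha 7 (r = 0.979). Group means spanned 3.32 on the log2 scale for ANGPT2, 3.07 for PDGFB and 2.87 for ESM1, against 0.21 for PDGFA.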

How the data were processed

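RNA-Seq of 12 U2OS libraries was analysed. The authors deposited FPKM per gene for all libraries, with gene lengths and coordinates. Per the labels, the organism is mouse with builds GRCm38 and mm10, but the table lists human Ensembl genes and U2OS is a human line. The samples were therefore handled as human. The aligner, counting program, strand setting and human build are not given in the sources used here. The labels and the supplementary methods name different library kits, and the paper places transient transfection in HOS, another osteosarcoma line.

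FPKM times gene length gave whole reads for 100% of values, within 0.1 read, in every library. The library size implied by FPKM was 0.712 and 0.888 times the library's own reads in siSRSF1-3 replicates 1 and 2 and 0.990 to 1.09 times in the others. Intervals are exact (Clopper-Pearson, 95%). For the 17538 genes that reached a mean of 0.5 FPKM, log2(FPKM + 0.1) was modelled in R 4.3.3 with lmFit and eBayes (trend) of limma 3.58.1, on the 6 libraries of each comparison, and p-values were adjusted by Benjamini-Hochberg over all of these genes. The fit was run on simulated data with independent replicates of equal dispersion. Those data held no outlying or near-identical libraries, so they do not show how the fit behaves on the libraries here. The authors used DESeq2, which needs counts.

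The members and lists were chosen with earlier results of these data known. Of 111 symbols looked up by full name, 110 had 1 gene and RGS5 was left out. Named were all members, SRSF1 and LINC01134, other pathway genes past the threshold, the 2 highest genes of each function list, and, for the 3 members with the widest range of group means, the 3 protein coding genes (mean FPKM 1 or more) with the highest correlation. Alternatives were a pseudocount of 1, the filter removed or raised to 1 FPKM, scaling to each library's own reads, voom, one fit over all groups, a replicate block, the unadjusted p and omission of each library. Chosen after seeing the data were omission of blank replicate 1 with OE-LINC01134 replicate 2, removal of a gene length trend and averaging of near-identical replicates. The averaged replicates were blank 2 with 3, OE-LINC01134 1 with 3, and all 3 of siSRSF1-2.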

Additional observations from a re-analysis of the deposited data

How the results depend on the processing

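The direction of ANGPT2, ESM1 and PDGFB against blank was the same under every alternative run, but their calls depended on the libraries and the scaling. The values are numbers of genes past the threshold, members (of 8) first and other pathway genes (of 51) second, with the share of all genes past it in percent, and the cause of each change was not tested. Without adjustment the counts went from 3 and 2 to 5 and 11 (14.8%) with siSRSF1-3, from 1 and 1 to 4 and 7 (7.45%) with OE-LINC01134, and from 0 and 0 to 3 and 9 (16.4%) between the siRNAs. With voom, 5 other genes passed with siSRSF1-3 (3.35%), 2 members and 2 others with OE-LINC01134 (1.98%), and 2 members between the siRNAs (0.627%). One fit over all 4 groups gave 11 others with siSRSF1-3 (13.8%), 1 member with siSRSF1-2 (from 4, 1.79%), 2 and 2 with OE-LINC01134 (3.93%), and 2 and 7 between the siRNAs (15.6%). Scaling to own reads gave 1 member with siSRSF1-3 (0.393%), where the median of all genes moved from -0.01 to -0.26, and from -0.02 to -0.31 between the siRNAs. A pseudocount of 1 gave 2 others with siSRSF1-2 (from 4, 2.16%), and removal of the length trend 1 member between the siRNAs (0.422%). Averaging near-identical replicates, which leaves fewer samples, gave 0 and 0 in each comparison with blank, where at most 1 of all genes passed. Without blank replicate 1 and OE-LINC01134 replicate 2, 5 and 10 passed (13.9%).

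Leaving out 1 library gave 0 to 4 members and 0 to 13 others with siSRSF1-3 (0% to 23.9%), 2 to 3 members and 4 to 6 others with siSRSF1-2 (3.04% to 6.77%), 0 to 4 and 0 to 7 with OE-LINC01134 (0.0057% to 8.78%), and 0 to 3 and 0 to 15 between the siRNAs (0% to 30.6%). Same-numbered replicates showed no shared deviation (r of 0.042 or less in each comparison). With 3 libraries per group, some of them outlying or near-identical, this cannot exclude a shared culture or batch by replicate number. With the replicate block the counts were 0 and 0 with siSRSF1-3 (0 of all genes), 0 and 0 with OE-LINC01134 (4 of all genes), and 4 and 4 with siSRSF1-2 (3.88%).

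Of the members' fold changes under the alternatives, 389 kept their direction and side of the threshold, 48 kept their direction but were no longer past it, and 22 came to be past it. The sign turned for 13 small differences. With siSRSF1-3, PDGFA was -0.12 with own-read scaling and -0.075 to 0.29 as libraries were left out in turn, and VEGFA 0.076 without the length trend and -0.53 to 0.053. Leaving out libraries gave -0.15 to 0.069 for PDGFA with siSRSF1-2 and -0.058 to 0.28 for VEGFA with OE-LINC01134. Between the siRNAs, own-read scaling gave -0.093 for PDGFA, -0.22 for PDGFC and -0.25 for VEGFC, removal of the length trend 0.014 for VEGFA and -0.29 for VEGFC, and leaving out libraries -0.0049 to 0.36 for PDGFA and -0.12 to 0.18 for VEGFC. ANGPT1 rests on 3 to 10 reads per siRNA library, which limits its precision.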

Other observations

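A few genes of the pathways separated blank replicate 1 from the other blank libraries, and were named after their values were seen. ANGPTL4, a secreted inhibitor of lipoprotein lipase, was at 0.888 FPKM in blank replicate 1 and 7.37 and 8.07 in the others, and at 0.421 to 1.52 in the other 9 libraries. TIE1, an orphan receptor partner of TIE2, was at 0.156 against 2.78 and 2.07 FPKM, and SPRY4, an inhibitor of receptor signalling, at 0 against 1.52 and 1.36, with 0 in the other 9 libraries. NRP2, a coreceptor of VEGFC, was at 0.117 against 0.689 and 0.570 FPKM.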
